A study of Homo sapiens with 12 samples.

Results

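The genes described here are 9 receptors, adhesion molecules and regulators that guide T cells and T-lymphoblastic leukemia cells through tissues: the chemokine receptors CXCR4, CCR4, CCR7 and CCR9, the sphingosine-1-phosphate (S1P) receptor S1PR1, the transcription factor KLF2, the integrin chains ITGA4 and ITGB2, and the hyaluronan receptor CD44. They were chosen by name and matched to Ensembl identifiers, and 9 of 9 were found among the 58288 genes listed in each deposited table. RNA-Seq had been carried out in HPB-ALL and KOPTK1, both established human cell lines of T-acute lymphoblastic leukemia (T-ALL). Each line gave 3 libraries from cells with a control shRNA directed at GFP (shGFP) and 3 from cells with an shRNA directed at SHQ1 (shSHQ1), 12 libraries in all. SHQ1 is an assembly factor of H/ACA ribonucleoproteins. All cells, controls included, had been infected with pLKO.1 lentivirus, and the labels give 48 h of culture with 2 μg/ml puromycin. The study's methods give 48 h of culture after infection and then a further 48 h of selection with puromycin. The labels say neither which SHQ1 shRNA was used nor whether replicates were separate infections. For HPB-ALL, the study names SHQ1 shRNA-2 in its splicing analysis.

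Only 1 value per gene and line was used, the average log2 CPM (counts of a gene per 1000000 counts of a library) that the authors computed over all libraries of a line. Values of the 12 single libraries stand under plain numbers that no sample label explains and were not used, nor was the authors' own comparison of the groups. The effect of SHQ1 shRNA on these genes was therefore not analysed here, and no value below has a replicate error or a test. For the same reason SHQ1 itself cannot serve as a check of the knockdown: its average over control and knockdown libraries was 59.5 RPKM in HPB-ALL and 43.2 RPKM in KOPTK1. Levels are given as RPKM, reads scaled to depth (CPM) and divided by summed exon length in kilobases, derived from the averages. The question left to these data is how strongly each gene was expressed in either line and how far the lines stood apart. Each average pools control and knockdown libraries. A response to the SHQ1 shRNA that differs between the lines therefore cannot be told apart from a difference between the lines themselves. A difference of at least 2-fold, or 1 on the log2 scale, was called apart, among the 25479 genes with at least 1 RPKM in either line. The 2 tables had been normalized separately, and the median difference over these genes was -0.05 (log2, HPB-ALL minus KOPTK1).

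Lymphocyte traffic is set by a small number of surface receptors. Chemokine receptors are coupled to G proteins and steer a cell along a gradient of their ligand, integrins and CD44 hold it to other cells and to matrix, and S1PR1 draws it out of the thymus and lymph nodes towards the S1P of blood and lymph. KLF2 is the transcription factor known for driving S1PR1 as thymocytes mature. In T-ALL, CXCR4 is known for keeping leukemia cells in the bone marrow, and CCR7 for carrying them into the central nervous system.

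The identity of the cells was checked against marker genes. Of 11 T lineage markers, 9 reached 1 RPKM in HPB-ALL and 10 in KOPTK1. CD3D stood at 295 and 301 RPKM in HPB-ALL and KOPTK1, LCK at 224 and 186 RPKM, whereas CD4 stayed below 1 RPKM in both lines (0.939 and 0.631). CD8A was at 0.968 RPKM in HPB-ALL and 5.47 RPKM in KOPTK1, and CD2 at 13.7 and 47.8 RPKM. All 5 myeloid and all 4 epithelial markers were below 1 RPKM in both tables, with highest values of 0.663 (CSF1R, KOPTK1) and 0.397 RPKM (KRT8, KOPTK1). Among 4 B cell markers, CD79A reached 43.3 RPKM in HPB-ALL and 16.1 RPKM in KOPTK1, and the other 3, PAX5 and MS4A1 among them, were under 1 RPKM. Of 4 erythroid markers HBA1 alone passed 1 RPKM (2.12 and 1.83), and of 4 fibroblast markers COL1A1 alone (1.40 and 1.15).

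The averages of the lines were not placed symmetrically, and this bears on every comparison below. Of 13544 genes with at least 5 RPKM in KOPTK1, 154 (1.14%) were at least 8-fold lower in HPB-ALL and 52 (0.384%) at least 32-fold lower, down to 1.40% of the KOPTK1 level. Of 12942 genes with at least 5 RPKM in HPB-ALL, 0 were 8-fold lower in KOPTK1, and the lowest KOPTK1 value was 23.4% of the HPB-ALL level. Whether the libraries of the KOPTK1 table came from that line alone was not tested, and its part in the differences of the 9 genes was not tested either.

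All 9 genes reached 1 RPKM in KOPTK1 and 7 of them in HPB-ALL, the exceptions being CCR4 and CD44. The levels ran from 0.140 RPKM for CD44 to 269.8 RPKM for ITGA4 in HPB-ALL, and from 1.84 RPKM for CCR4 to 213 RPKM for ITGA4 in KOPTK1. Of the 9 genes, 4 were at least 2-fold apart between the lines, CD44, CCR9, CCR4 and CCR7, each with the higher level in KOPTK1. Over all compared genes 8.1% were at least 2-fold higher in KOPTK1, 3.81% at least 2-fold higher in HPB-ALL, and 11.9% apart in either direction. The other 5 genes, CXCR4, S1PR1, KLF2, ITGA4 and ITGB2, were within 2-fold. The median difference of the 9 genes was -0.35 on the log2 scale (HPB-ALL minus KOPTK1), beside -0.05 for all compared genes. Since only 1 average per line was used, these differences have no replicate check here.

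**Figure D1:**
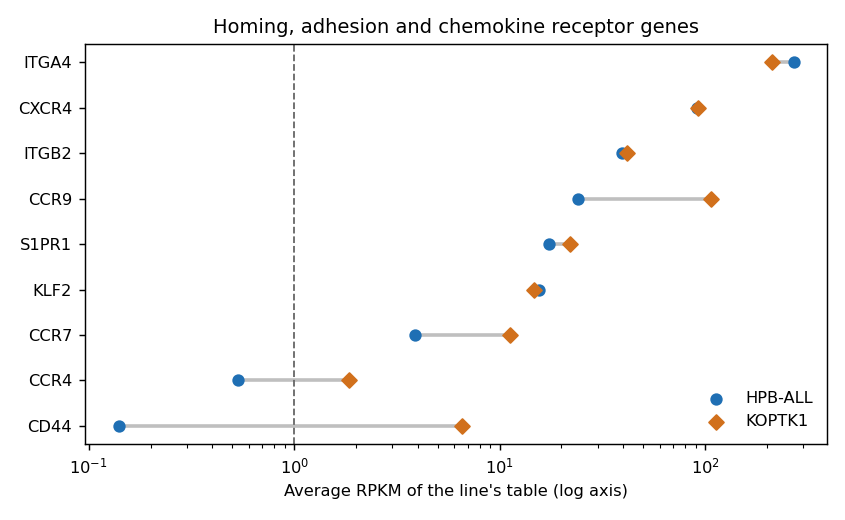
Average RPKM (log axis) of the 9 genes in HPB-ALL (blue circles) and KOPTK1 (orange diamonds), 1 authors' average over all libraries per point and so without error bars. The dashed line marks 1 RPKM, and the widest gap is that of CD44, from 0.140 RPKM in HPB-ALL to 6.56 RPKM in KOPTK1.

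CXCR4, the receptor of the chemokine CXCL12, had practically the same average in both lines. Its level was 90.9 RPKM in HPB-ALL and 92.5 RPKM in KOPTK1, a difference of -0.02 on the log2 scale (HPB-ALL minus KOPTK1). It was higher than 98.1% of compared genes in HPB-ALL and than 98.2% in KOPTK1. CXCR4 lies on chromosome 2 of GRCh38, from 136114349 to 136118165 on the minus strand, in 2 exon blocks with a summed length of 2015 bases. The sign of so small a difference turned with the scaling of the tables, between -0.05 and 0.04.

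CCR9, the receptor of CCL25 that marks cells bound for the thymus and small intestine, showed the widest gap among the chemokine receptors. It stood at 24.1 RPKM in HPB-ALL and at 107 RPKM in KOPTK1, where it was 4.44-fold higher (log2 difference -2.15, HPB-ALL minus KOPTK1). Over all compared genes, 2.84% were at least 4-fold higher in KOPTK1. The gene ranked 3461 of 25479 by RPKM in HPB-ALL and 369 in KOPTK1. Within a table, where scaling cancels, the CCR9 level was 0.265 of the CXCR4 level in HPB-ALL and 1.16 times that level in KOPTK1. The order of the pair in KOPTK1 depended on the length used: with the longest annotated transcript in place of summed exons, CXCR4 was at 85.9 RPKM and CCR9 at 77.9 RPKM there. It lies on chromosome 3, from 45886504 to 45903177 on the plus strand, in 4 exon blocks.

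CCR7, the receptor of CCL19 and CCL21 that guides lymphocytes into lymph nodes, was at 3.88 RPKM in HPB-ALL and 11.2 RPKM in KOPTK1, 2.89-fold higher in the latter (log2 difference -1.53). It moved from above 42.2% of compared genes in HPB-ALL to above 69.2% in KOPTK1. Its ratio to CXCR4 was 0.0426 in HPB-ALL and 0.121 in KOPTK1. CCR9 exceeded CCR7 in both lines, by 6.21 times in HPB-ALL and 9.54 times in KOPTK1. The gene occupies 40553769 to 40565472 on the minus strand of chromosome 17, in 4 exon blocks.

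CCR4, the receptor of CCL17 and CCL22 found on skin-homing and helper T cells, was the weakest chemokine receptor of the 4. The averages were 0.531 RPKM in HPB-ALL, below the minimum of 1, and 1.84 RPKM in KOPTK1, a 3.48-fold gap (log2 difference -1.80). In CPM, which does not divide by length, this is 1.64 against 5.71. It exceeded 2.72% of compared genes in HPB-ALL and 19.8% in KOPTK1. CCR4 lies at 32951574 to 32956349 on the plus strand of chromosome 3, in 2 exon blocks.

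In the wider family of 21 conventional and atypical chemokine receptors, 9 reached 1 RPKM in at least one line and 5 of these 9 were 2-fold apart, beside 11.9% of all compared genes. The count was 8 with tables scaled to summed RPKM, 10 of all 21 without a filter and 2 with a minimum of 10 RPKM. The number of receptors compared differs between these settings. The shares of all compared genes at the same settings were 12.7%, 14.5% and 5.64%. CCR9, CCR4 and CCR7 were the 3 with the higher level in KOPTK1. The 2 with the higher level in HPB-ALL were CXCR3, a receptor of inflammatory chemokines, at 3.95 against 1.61 RPKM (log2 difference 1.29), and CCR8, at 4.49 against 1.85 RPKM (log2 difference 1.28). CXCR6 was close in both, at 3.46 and 3.12 RPKM. The other 12 receptors, CX3CR1 among them, stayed below 1 RPKM in both lines. CXCR4 and CCR9 together held 83.9% of the summed RPKM of the 21 receptors in HPB-ALL and 88.4% in KOPTK1. CXCR4 alone held 66.3% in HPB-ALL and 41.0% in KOPTK1, and CCR9 alone 17.6% and 47.4%. The ligands of the 4 receptors, CXCL12, CCL17, CCL22, CCL19, CCL21 and CCL25, were below 1 RPKM in both lines, with CCL25 the highest at 0.764 RPKM in KOPTK1.

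**Figure D2:**
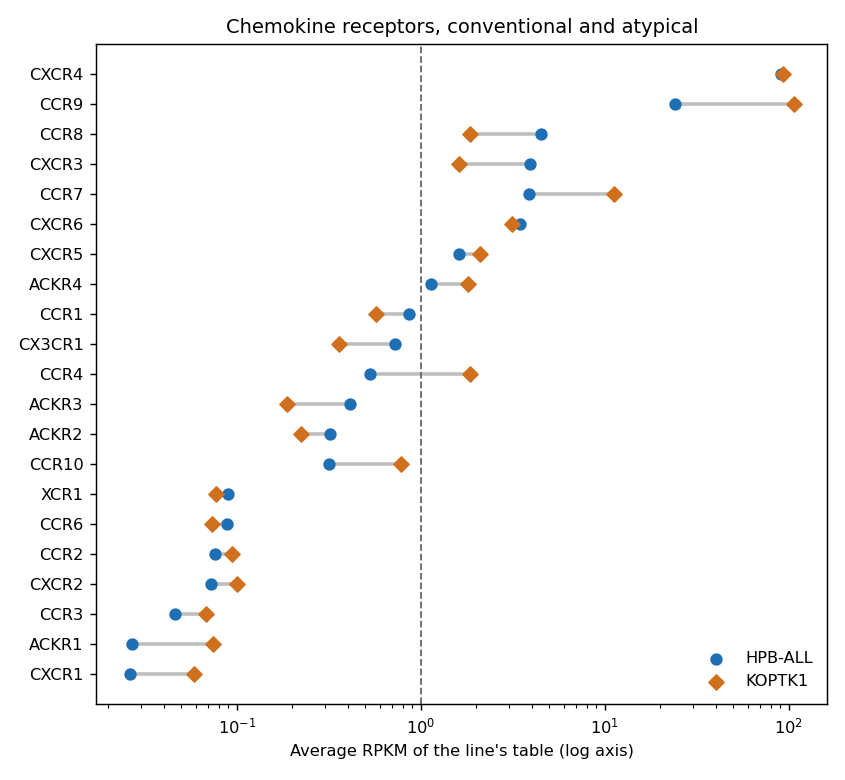
Average RPKM (log axis) of 21 chemokine receptors in HPB-ALL (blue circles) and KOPTK1 (orange diamonds), ordered by their HPB-ALL level, with 1 authors' average per point. Only CXCR4 and CCR9 exceed 10 RPKM in both lines, and 12 receptors stay to the left of the dashed line at 1 RPKM in both.

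S1PR1, the receptor that takes mature thymocytes and lymphocytes into the blood, was at 17.3 RPKM in HPB-ALL and 22.1 RPKM in KOPTK1. The gap of 1.28-fold (log2 difference -0.35) was within 2-fold, and 7199 of the 25479 compared genes were at least as far towards KOPTK1. Of the 5 S1P receptors S1PR1 was the most abundant in either line, with 67.2% of their summed RPKM in HPB-ALL and 69.9% in KOPTK1. S1PR3 followed at 4.85 and 6.16 RPKM, and S1PR1 was 3.57 times and 3.59 times higher than S1PR3 within the respective tables. S1PR2 was at 2.74 and 1.74 RPKM and S1PR4 at 0.733 and 1.04 RPKM, while S1PR5, a receptor of natural killer cells, stayed below 1 RPKM (0.120 and 0.590). S1PR1 lies on chromosome 1, from 101236888 to 101241518 on the plus strand, in 2 exon blocks.

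Among 12 genes of S1P receptors, enzymes and transporters, 9 were compared and 0 of these were 2-fold apart, beside 11.9% of all compared genes. The count was 1 when the tables were scaled to summed RPKM, 1 of all 12 without a filter, and 2 of 9 at a fold of 1.5. The shares of all compared genes at the same settings were 12.7%, 14.5% and 26.6%. SGPL1, the lyase that degrades S1P, was at 11.3 RPKM in HPB-ALL and 11.2 in KOPTK1. The kinase SPHK2, which makes S1P, was at 8.74 and 8.63 RPKM. SPNS2, an exporter of S1P, differed most, at 4.15 RPKM in HPB-ALL against 2.53 RPKM in KOPTK1 (log2 difference 0.72).

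KLF2 was expressed at 15.5 RPKM in HPB-ALL and 14.7 RPKM in KOPTK1, a log2 difference of 0.08 (HPB-ALL minus KOPTK1). It exceeded 77.4% of compared genes in HPB-ALL and 76.0% in KOPTK1. The gene lies on chromosome 19, from 16324817 to 16327874 on the plus strand, in 3 exon blocks. In a list of 7 genes around KLF2 and T-cell exit, 7 were compared and 0 were 2-fold apart, beside 11.9% of all compared genes. The median log2 difference of the list was -0.21. At a fold of 1.5 the count was 2, beside 26.6% of all compared genes. CD69, the activation marker that binds S1PR1 and removes it from the surface, was at 6.66 RPKM in HPB-ALL and 12.2 RPKM in KOPTK1 (log2 difference -0.87). FOXO1, a transcription factor upstream of KLF2, was at 1.90 and 1.03 RPKM (log2 difference 0.88), and FOXO3 at 8.31 and 10.8 RPKM.

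ITGA4, the alpha 4 chain that pairs with ITGB1 as VLA-4 or with ITGB7 as the gut-homing integrin, was the most abundant of the 9 genes in both lines. It stood at 269.8 RPKM in HPB-ALL and 213 RPKM in KOPTK1, a log2 difference of 0.34. By RPKM it ranked 97 of 25479 genes in HPB-ALL and 135 in KOPTK1. ITGA4 lies on chromosome 2, from 181457207 to 181536187 on the plus strand, in 29 exon blocks with a summed length of 4606 bases.

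The beta partners of ITGA4 were kept at almost the same proportion in both lines. ITGB1 was at 52.0 RPKM in HPB-ALL and 40.1 RPKM in KOPTK1, and ITGB7 at 3.10 and 2.53 RPKM. ITGA4 was 5.19 times ITGB1 in HPB-ALL and 5.30 times in KOPTK1, and 87.0 and 83.9 times ITGB7. ITGB1 in turn exceeded ITGB7 by 16.8 times and 15.8 times.

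ITGB2, the beta 2 chain of the leukocyte integrins, was at 39.6 RPKM in HPB-ALL and 41.7 RPKM in KOPTK1 (log2 difference -0.07). Its partner ITGAL, with which it forms LFA-1, was at 35.4 and 28.6 RPKM, giving 1.12 ITGB2 per ITGAL in HPB-ALL and 1.46 in KOPTK1. The myeloid partner ITGAM stayed at 0.159 and 0.305 RPKM. ITGB2 lies on chromosome 21, from 44885953 to 44928873 on the minus strand, in 19 exon blocks. Of its 3500 exonic bases, 220 are shared with ITGB2-AS1 on the opposite strand, which had averages of 3.44 and 3.54 log2 CPM. Whether reads were counted by strand is not given in the sources used here, so reads in the shared 6.29% of the gene could not be told apart.

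Among 18 integrin alpha chains, 11 were compared and 3 were 2-fold apart, beside 11.9% of all compared genes. The count was 0 with a minimum of 10 RPKM, 5 of all 18 without a filter and 5 of 11 at a fold of 1.5. The shares of all compared genes at the same settings were 5.64%, 14.5% and 26.6%. ITGAV, an alpha chain of vitronectin receptors, was at 5.79 RPKM in HPB-ALL and 1.86 in KOPTK1 (log2 difference 1.64). ITGA10 was at 1.80 and 0.836 RPKM (log2 difference 1.11), and the collagen-binding chain ITGA1 at 1.76 and 4.37 RPKM, higher in KOPTK1 (log2 difference -1.31). ITGA4 took 77.4% of the summed RPKM of the 18 alpha chains in HPB-ALL and 74.2% in KOPTK1, followed by ITGAL with 10.2% and 9.96%. Of 8 beta chains, 4 were compared and 0 were 2-fold apart, while 1 was apart at a fold of 1.5. ITGB1 held 53.7% of their summed RPKM in HPB-ALL and 45.9% in KOPTK1, and ITGB2 40.9% and 47.7%.

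**Figure D3:**
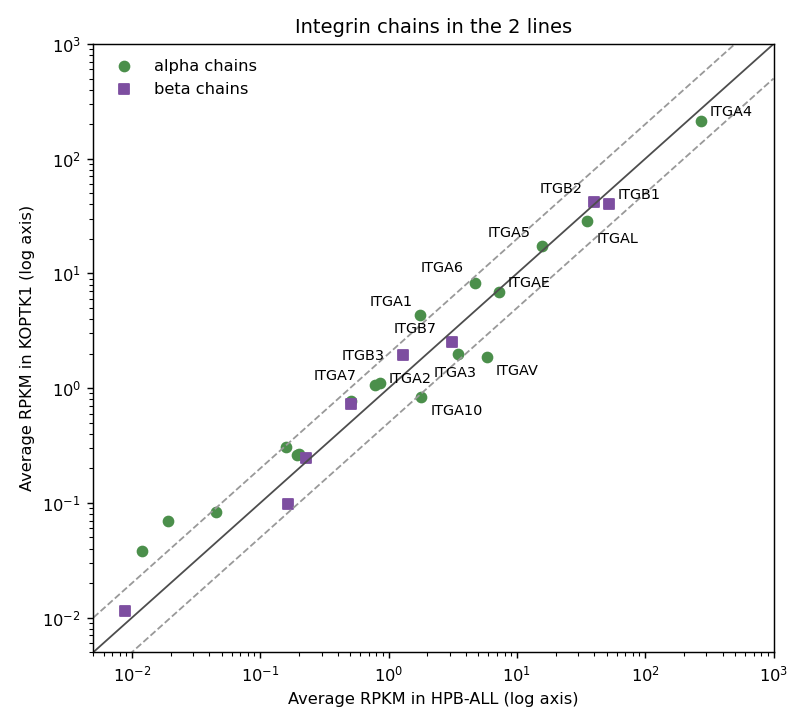
Average RPKM of 18 integrin alpha chains (green circles) and 8 beta chains (purple squares) in HPB-ALL (horizontal log axis) and KOPTK1 (vertical log axis), with names for the chains that reached 1 RPKM in either line. The solid line marks equal levels and the dashed lines 2-fold; ITGA4 lies farthest to the upper right, and ITGAV, ITGA10 and ITGA1 are the named chains outside the dashed lines.

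Of 12 genes of inside-out integrin activation, 12 were compared and 1 was 2-fold apart, beside 11.9% of all compared genes. This was SKAP1, an adaptor downstream of the T-cell receptor, at 10.7 RPKM in HPB-ALL and 3.61 RPKM in KOPTK1 (log2 difference 1.56). The integrin-binding proteins TLN1 (55.5 and 50.3 RPKM) and FERMT3 (72.6 and 56.9 RPKM) and the adaptor FYB1 (74.0 and 79.2 RPKM) were within 2-fold. Of 9 counter-receptors of leukocyte integrins, 7 were compared and 0 were 2-fold apart. At a fold of 1.5, 3 were apart, and without a filter 1 of all 9, beside 26.6% and 14.5% of all compared genes. ICAM2 and ICAM3, ligands of LFA-1, stood at 29.7 and 26.7 RPKM and at 21.5 and 12.2 RPKM. VCAM1, the endothelial ligand of VLA-4, was at 0.0275 and 0.0789 RPKM.

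Among genes that relay chemokine receptor signals, 2 of 17 compared genes were 2-fold apart, close to the 11.9% of all compared genes. Both were regulators of G protein signalling that were higher in KOPTK1, RGS16 at 0.635 against 3.07 RPKM (log2 difference -2.27) and RGS2 at 2.89 against 6.93 RPKM (log2 difference -1.26). At a fold of 1.5, 4 genes were apart, and 0 with a minimum of 10 RPKM, beside 26.6% and 5.64% of all compared genes. CORO1A, an actin regulator needed for T-cell exit from the thymus, was at 189.5 RPKM in HPB-ALL and 150.7 RPKM in KOPTK1. MYO1G, GNB1 and RAC2 were at 138, 116 and 82.8 RPKM in HPB-ALL and at 148, 103 and 72.2 RPKM in KOPTK1.

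CD44, the receptor of hyaluronan in the extracellular matrix, was the gene that separated the lines most. It stood at 0.140 RPKM in HPB-ALL and 6.56 RPKM in KOPTK1, a 47.0-fold gap (log2 difference -5.55). In CPM, the averages were 0.857 and 40.2. Among all 25479 compared genes, 33 lay at least as far towards KOPTK1, CD44 included, and no compared gene lay as far towards HPB-ALL, where the largest log2 difference was 2.44. That bound holds for all genes, given the asymmetry of the averages described above, and is not particular to CD44. CD44 exceeded 0.487% of compared genes in HPB-ALL and 54.4% in KOPTK1. The HPB-ALL value was low but above the bottom of its table, with an average of -0.22 log2 CPM beside a lowest value of -4.36 over all genes.

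Set against other members of the same table, ITGA4 exceeded CD44 by 1931 times in HPB-ALL and by 32.4 times in KOPTK1. CD44 lies on chromosome 11, from 35138870 to 35232402 on the plus strand, in 18 exon blocks with a summed length of 6129 bases. CD44-AS1 on the opposite strand shares 63 of these bases, or 1.03%. Its averages were -3.66 log2 CPM in HPB-ALL and 0.72 log2 CPM in KOPTK1, also higher in KOPTK1. Isoforms of CD44, which is known for variable exons, cannot be separated in a gene-level value. In a bulk population, fewer cells that express a gene and less RNA per cell cannot be told apart.

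**Figure D4:**
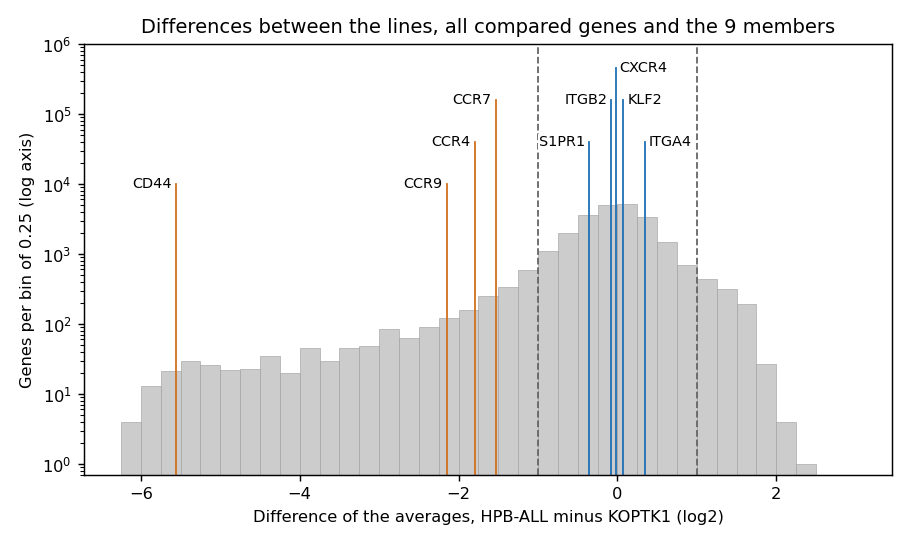
Difference of the averages (HPB-ALL minus KOPTK1, log2, horizontal axis) for 25479 genes with at least 1 RPKM in either line, as genes per bin (log axis), with vertical lines at the 9 named genes (orange where at least 2-fold apart, blue otherwise; line height carries no value). The dashed lines mark 2-fold; CD44 is at -5.55 in a tail that reaches -6.16 on the side of KOPTK1, whereas the other side ends at 2.44.

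In a list of 18 selectins, selectin ligands and genes around CD44, 17 were found in the tables, with CD24 not analysed here, and 13 were compared. Besides CD44, SELP was 2-fold apart, at 2.00 RPKM in HPB-ALL and 0.730 RPKM in KOPTK1 (log2 difference 1.46). This made 2 of 13, close to the 11.9% of all compared genes. The count was 0 with a minimum of 10 RPKM and 5 at a fold of 1.5, beside 5.64% and 26.6% of all compared genes. Of the linkers of CD44 to actin, MSN was at 217 RPKM in HPB-ALL and 184 RPKM in KOPTK1, and EZR at 75.1 and 93.5 RPKM. RDX was lower, at 9.61 and 5.50 RPKM. SPN, the sialomucin CD43, was at 66.9 RPKM in HPB-ALL and 48.4 RPKM in KOPTK1. HMMR, another hyaluronan receptor, was higher in HPB-ALL, at 25.4 against 13.8 RPKM (log2 difference 0.88), opposite in sign to CD44.

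Ordered by level, the HPB-ALL averages ran ITGA4, CXCR4, ITGB2, CCR9, S1PR1, KLF2, CCR7, CCR4 and CD44. In KOPTK1, CCR9 moved up to follow ITGA4 directly, and CD44 passed CCR4, while ITGB2, S1PR1, KLF2 and CCR7 kept their order among themselves. The spread between libraries was not used here, so which neighbours in either order differ was not tested. S1PR1 and KLF2 in HPB-ALL (17.3 and 15.5 RPKM) and CCR9 and CXCR4 in KOPTK1 (107 and 92.5 RPKM) were the closest pairs in each line by ratio.

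RefSeq windows of 250 bases upstream of a start (GRCh38.p14) were given for 7 of the 9 genes at 10 starts, 3 of them for CXCR4 and 2 for CCR9. CCR7 and ITGB2 had no entry. In the whole windows, CpG dinucleotides numbered 4 and 6 at the CCR9 starts, 5 for CCR4, 8, 12 and 24 at the CXCR4 starts, 15 for CD44, 18 for S1PR1, 25 for ITGA4 and 41 for KLF2, beside a median of 11 over 35116 windows. KLF2 had more CpG than 98.3% of windows. Part of the CpG lay in annotated exons: outside exons ITGA4 held 3 CpG in 71 bases and S1PR1 held 3 in 119 bases, and the CD44 window lies wholly in exon sequence after the annotated gene start. Over all starts the counts overlapped, since the CXCR4 starts inside the gene held 8 and 12 CpG, below the 15 of CD44. At the most upstream start alone, the genes apart between the lines held 4 (CCR9), 5 (CCR4) and 15 (CD44). Those within 2-fold held 18 (S1PR1), 24 (CXCR4), 25 (ITGA4) and 41 (KLF2). These counts leave out the inner starts of CXCR4 and CCR9 and include exonic bases. The same split was not made over all compared genes, so no pattern is read from it. Only 7 genes had windows, and whether CpG content bears on the differences was not tested. The windows of CCR9 and CCR4, with the fewest CpG, of KLF2, with the most, and of the upstream start of CXCR4, the most abundant chemokine receptor in HPB-ALL, are shown up to the first annotated exon; each is read 5′ to 3′ on the strand of the gene, with CpG dinucleotides in capitals. The counts above are for whole windows, and the stretches shown hold 2 and 6 CpG for CCR9, 2 for CCR4, 22 for CXCR4 and 39 for KLF2.
CCR9, upstream start, chr3:45886293-45886503, plus strand: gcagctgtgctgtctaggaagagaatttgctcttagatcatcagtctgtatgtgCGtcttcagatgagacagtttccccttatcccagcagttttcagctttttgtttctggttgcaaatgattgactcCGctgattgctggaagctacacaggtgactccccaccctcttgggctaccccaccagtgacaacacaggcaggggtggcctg
CCR9, downstream start, chr3:45893967-45894216, plus strand: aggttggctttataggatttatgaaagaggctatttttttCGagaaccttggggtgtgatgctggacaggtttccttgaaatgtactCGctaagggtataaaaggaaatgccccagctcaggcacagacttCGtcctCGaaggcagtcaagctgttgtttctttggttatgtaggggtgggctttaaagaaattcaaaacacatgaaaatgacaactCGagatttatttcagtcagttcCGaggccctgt
CCR4, chr3:32951394-32951573, plus strand: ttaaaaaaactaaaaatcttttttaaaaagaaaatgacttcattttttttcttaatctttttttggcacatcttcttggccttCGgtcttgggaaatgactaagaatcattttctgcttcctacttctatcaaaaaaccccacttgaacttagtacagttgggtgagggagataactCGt
CXCR4, upstream start, chr2:136118166-136118399, minus strand: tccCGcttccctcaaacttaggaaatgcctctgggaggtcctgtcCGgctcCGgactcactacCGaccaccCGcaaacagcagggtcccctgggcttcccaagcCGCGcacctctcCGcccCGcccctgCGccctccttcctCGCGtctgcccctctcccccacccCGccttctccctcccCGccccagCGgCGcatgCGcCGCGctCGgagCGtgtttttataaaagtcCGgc
KLF2, chr19:16324576-16324816, plus strand: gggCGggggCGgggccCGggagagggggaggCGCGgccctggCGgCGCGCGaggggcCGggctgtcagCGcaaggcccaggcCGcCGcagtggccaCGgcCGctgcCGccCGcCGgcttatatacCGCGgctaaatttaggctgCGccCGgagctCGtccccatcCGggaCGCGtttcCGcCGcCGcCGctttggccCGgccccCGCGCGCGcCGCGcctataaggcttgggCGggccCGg

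Motifs were searched on both strands of the whole 250-base windows, as letters only. TGGGAA, the core bound by the NOTCH partner RBPJ, occurred at 3 of 10 starts, those of CXCR4 (2 of 3 starts) and CCR4, and in 20.8% of all windows. The GC box GGGCGG occurred at 4 of 10 starts, of CXCR4, KLF2 and CD44, and in 42.6% of all windows. CACCC, a core of KLF sites that may overlap a GC box, occurred at 9 of 10 starts, KLF2 being the exception, and in 54.7% of all windows. TATAAA occurred at 2 of 10 starts, of CXCR4 and CCR9, and in 10.7% of all windows. No motif set the genes that were higher in KOPTK1 apart from the others, and a match of letters does not show that a factor binds there.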

How the data were processed

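Total RNA of 12 libraries (4 groups of 3) was rRNA-depleted and sequenced by the authors. The submitters' processing notes name Trimmomatic 0.36, STAR 2.5.4b, Picard 2.18.7, featureCounts 1.6.2 and edgeR 3.22.3 on hg38. In the deposited tables, 1 per line, 99.97% of 19004 protein-coding genes overlapped their GRCh38 position.

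For each line, the authors deposited a mean log2 CPM of its libraries. The deposited tables also hold exon coordinates, summed exon length, 12 per-library columns headed by numbers, which were not used because no label names them, and the authors' own comparison (fold change, F, p-value, FDR), which was not used either. Depth per library is therefore not given, and the planned edgeR test was not run. RPKM was obtained by taking that mean off the log scale and dividing by exon length in kilobases. Symbols matched 95.8% of identifiers. Steps used Python 3.11.15 with pandas 2.3.3 and were tested on simulated data.

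The 9 genes and all lists were chosen with earlier results of these data known. Named from each list were up to 4 genes with the highest RPKM and up to 4 with the largest difference. Chosen after their values were seen were CCR8, CX3CR1, CXCL12, CCL22, S1PR5, VCAM1 and the antisense genes. CD4 and S1PR3 were also named without being among the highest or farthest of their lists. Some genes of the lists are not reported here. Alternatives were other scalings, filters, fold, gene class and transcript length.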

Additional observations from a re-analysis of the deposited data

How the results depend on the processing

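Each of the 3 other scalings shifts every gene by 1 constant (log2 0.05, 0.06 and -0.03). None of the 9 genes lay near enough to 2-fold to cross it, so the scalings could not change these calls. Under them the log2 differences of the 4 genes apart ran between -5.58 and -5.49 for CD44 and between -2.18 and -2.09 for CCR9. For CCR4 they ran between -1.82 and -1.74, and for CCR7 between -1.56 and -1.47. The other 5 genes stayed within 2-fold, and CXCR4 alone changed sign (-0.05 to 0.04). A minimum of 10 RPKM in either line left 7 of the 9 genes, of which 2 were apart and 2 higher in KOPTK1, and 527 of all genes, 343 higher in KOPTK1 and 184 in HPB-ALL. Without a filter, 8431 of all genes were apart and 7043 of them higher in KOPTK1. A fold of 1.5 gave 6765, 4285 and 2480, and protein-coding genes alone 1212, 704 and 508 (3035, 2065 and 970 as reported). The share of compared genes apart was 5.64% at 10 RPKM, 14.5% without a filter, 26.6% at a fold of 1.5 and 9.65% for protein-coding genes (11.9% as reported), and the cause was not tested. With the longest GENCODE 44 transcript as length, no level moved by over 1.5 times, but S1PR1 passed CCR9 in HPB-ALL, and in KOPTK1 CXCR4 passed CCR9 and CCR7 passed KLF2.

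No paired analysis was possible because single libraries could not be tied to their sample labels. For the same reason the planned fits with a replicate block, another normalization, filter or pseudocount, and those without 1 replicate were not run. The averages used carry no spread, and the depth behind a low level such as CCR4 or CD44 in HPB-ALL is not given here.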
